A study of Homo sapiens with 1 sample.

Results

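The human miRNAs numbered 4417 to 4540 were described on 1 miRNA array. A miRNA belonged to the set when its name on the array was hsa-miR- followed by a number in that range, and 142 of the 2549 human miRNAs on the array did. They were compared with the 494 human miRNAs numbered below 500. The array was hybridised with RNA from DLD-1, a human colorectal carcinoma cell line grown in RPMI medium with fetal bovine serum. The cells had been transfected with the negative control plasmid, pLVX-NC, in a study of the circular RNA circLONP2, and cells given the circLONP2 plasmid were not analysed here. With 1 array there was no replicate culture, so no test was made and every error given below is the SD between spots of the same array.

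A miRNA is cut from a hairpin of its primary transcript by Drosha with DGCR8 and then by Dicer, and 1 strand, the 5p or the 3p arm, is loaded onto an Argonaute protein. It finds its target mRNAs mainly through its seed, bases 2 to 8 of the mature strand. Registry numbers follow the order of discovery. Low numbers hold the miRNAs cloned first, which are mostly conserved and abundant, whereas the high numbers were largely assigned from deep sequencing, and many of those entries rest on few reads and on a single arm.

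The mature sequences are from RefSeq (GRCh38.p14), 5′ to 3′, with the seed in capitals, and 126 of the 142 members matched an entry. The first set holds the brightest members with a sequence, in order of signal, since their base composition is described below.
miR-4499: aAGACUGAgaggaggga
miR-4428: cAAGGAGAcgggaacauggagc
miR-4530: cCCAGCAGgacgggagcg
miR-4478: gAGGCUGAgcugaggag
miR-4516: gGGAGAAGggucggggc
miR-4446-3p: cAGGGCUGgcagugacaugggu
miR-4522: uGACUCUGccuguaggccggu
miR-4505: aGGCUGGGcugggacgga
miR-4442: gCCGGACAagagggagg
miR-4484: aAAAGGCGggagaagcccca
miR-4515: aGGACUGGacucccggcagccc

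The second set holds, beside miR-4505, the members with the widest probe ranges among detected members with every spot well above background, followed by the pair whose probes were closest.
miR-4485-3p: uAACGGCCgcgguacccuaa
miR-4443: uUGGAGGCguggguuuu
miR-4483: gGGGUGGUcuguuguug
miR-4497: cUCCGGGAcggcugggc
miR-4476: cAGGAAGGauuuagggacaggc
miR-4502: gCUGAUGAugauggugcugaag

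The third set holds members at or below the edge of detection, and those that appear in the study's lists of changed miRNAs (miR-4521, miR-4473 and both arms of miR-4446).
miR-4524a-5p: aUAGCAGCaugaaccugucuca
miR-4510: uGAGGGAGuaggauguaugguu
miR-4491: aAUGUGGAcuggugugaccaaa
miR-4426: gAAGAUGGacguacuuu
miR-4439: gUGACUGAuaccuuggaggcau
miR-4521: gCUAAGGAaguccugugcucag
miR-4473: cUAGUGCUcuccguuacaagua
miR-4446-5p: aUUUCCCUgccauucccuuggc

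The array spent 20 spots on every human miRNA, divided in the members among 2 to 4 probes. Of the members 129 had 2 probes, 12 had 3 and 1 had 4. Brightness is the background-subtracted fluorescence of a spot in arbitrary units. Of the 2840 spots of the members, 109 had been marked as outliers by the scanner software and were left out, and no spot was saturated. The 99th percentile of 1000 negative control spots was a brightness of 12.5. Signals are given on the log2 scale relative to the 75th percentile among 2567 detected probes, a brightness of 248.8, so that a signal of 0 is the level of a bright detected probe. Brightness depends on how well a probe binds as well as on the amount of its miRNA, so an order of brightness between miRNAs is not an order of abundance.

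The identity of the cells was checked against miRNAs known from other tissues. Among 8 miRNAs of intestinal epithelium, 6 were detected, from miR-200a-3p at a mean brightness of 18.3 to miR-141-3p at 3024. The liver and gut miRNAs miR-192-5p and miR-194-5p were not detected. Of 9 miRNAs typical of other cell types, 5 were detected, from miR-133a-3p of muscle at 14.2 to miR-124-3p of neurons at 77.2. Apart from miR-141-3p no miRNA of either list exceeded the 85.3 of miR-200c-3p. miR-122-5p of liver, miR-1-3p of muscle, miR-451a of red cells and miR-143-3p of stroma were not detected. Over all human miRNAs on the array 56.8% were detected, so these counts alone do not establish the identity of the cells.

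Of the 142 members, 89 were flagged as detected by the scanner software, or 62.7%, where 56.8% of all human miRNAs on the array were. Of the miRNAs numbered below 500, 248 of 494 were detected, or 50.2%. The members were thus detected somewhat more often than the low-numbered miRNAs, with the share of all human miRNAs lying between them. The detected members were also farther from background. Every spot was well above background in 75 of the 89 detected members (84.3%), in 142 of the 248 detected low-numbered miRNAs (57.3%) and in 65.6% of all detected human miRNAs. This asks it of every probe and is harder to meet with 4 probes, which 139 low-numbered miRNAs and 1 member had. When 1 such probe was enough, 57.04% of the 142 members and 37.65% of the 494 low-numbered miRNAs met it. In only 3 detected members was no spot well above background. The brightest probe exceeded the 99th percentile of the negative controls in 88 of the 89 detected members and in 0 of the 53 undetected ones, whose median brightness was 0.339 and whose highest was 9.94.

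The detected members had a median signal of -0.89, with quartiles of -2.12 and 0.42 and a range from -5.84 to 7.38. The detected low-numbered miRNAs had a median of -2.69, with quartiles of -4.00 and -1.01 and a range from -6.50 to 6.99. The medians differed by 1.80 on the log2 scale, and the interquartile ranges of the sets overlapped. The difference was 0.91 when a probe needed every spot well above background for detection, and 0.95 after the normexp background correction. For the brightest probe of each miRNA alone it was 1.26, where the main value averages over the probes. The median SD between the spots of a member's probe was 0.140, a technical error that leaves out the spread between miRNAs. In brightness the medians were 136.7 for the members, 42.4 for the low-numbered miRNAs and 62.8 for all detected human miRNAs. A signal above the 75th percentile among detected probes was seen in 26 detected members (29.2%), in 31 detected low-numbered miRNAs (12.5%) and in 19.96% of all detected human miRNAs. The plot of cumulative signal shows the members to the right of the low-numbered miRNAs over nearly the whole range, with the curves meeting at both ends.

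**Figure D1:**
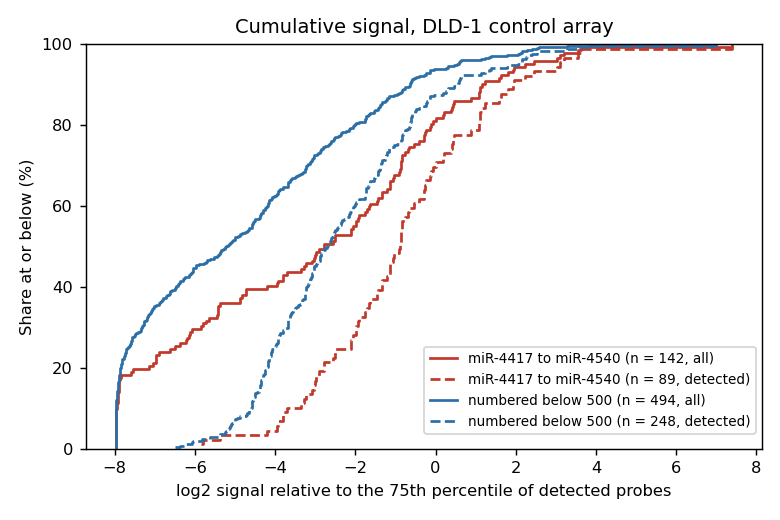
The x axis is the log2 signal relative to the 75th percentile among detected probes and the y axis the cumulative share of miRNAs (%), with solid lines for every miRNA of a set and dashed lines for those detected (members in red, miRNAs numbered below 500 in blue). The 89 detected members had a median of -0.89 and the 248 detected low-numbered miRNAs a median of -2.69.

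Members were also more frequent among the bright miRNAs than low-numbered miRNAs were. The 254 brightest human miRNAs held 24 members (16.9% of the members) and 28 low-numbered miRNAs (5.67%), beside 9.965% of all human miRNAs. The brightest 100 held 8 members (5.63%) and 13 low-numbered miRNAs (2.63%), beside 3.92% of all human miRNAs. A mean brightness above 100 was reached by 53 members (37.3%) and by 76 low-numbered miRNAs (15.4%). Above 1000 there were 9 members (6.34%) and 13 low-numbered miRNAs (2.63%). The shares of all human miRNAs above 100 and above 1000 were not counted. In the counts by rank the low-numbered miRNAs lay below all human miRNAs, so a contrast with them alone is the wider one. Summed brightness rested on few members, of which the brightest alone made up 56.3% of the summed mean brightness of the 142 members (means below 0 taken as 0), and the 15 brightest made up 85.0%.

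The brightest member, miR-4459, was the second brightest human miRNA of the whole array, at rank 2 of 2549. Its spots ran from 36802 through a median of 41419 to 46004, a mean of 41641 ± 3549 (SD, 20 spots), and its 2 probes differed by 0.23 on the log2 scale. It was 13.6-fold brighter than the next member. The brightest of the low-numbered miRNAs, miR-494-3p of the large imprinted cluster on the long arm of chromosome 14, ranked next to it at 31638 ± 1888 (19 spots, rank 3). The other 4 of the 5 brightest low-numbered miRNAs were miR-188-5p at 3570, the epithelial miR-141-3p at 3024, miR-197-5p at 2416 and miR-135a-3p at 1488. No sequence was matched to miR-4459.

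Below miR-4459, 5 members had a mean brightness between that of miR-4516 (2099) and that of miR-4499 (3052), close to that of the epithelial miR-141-3p. The spots of miR-4499 ran from 2364 through a median of 3188 to 3370 (mean 3052 ± 307, 18 spots, rank 26). Its locus is chr13:20433830-20433846 on the minus strand of GRCh38.p14, within the bounds of CRYL1, a crystallin-related enzyme gene. The spots of miR-4428 ran from 1937 through 2349 to 4219 (3001 ± 950, 19 spots, rank 29), and its locus chr1:237471164-237471185 on the plus strand lies within RYR2, the calcium release channel of heart muscle. Its spots fell into 2 groups by probe, at 2132 ± 133 (10 spots) and 3965 ± 146 (9 spots), so the 2 probes did not overlap. miR-4530, at chr19:39409629-39409646 on the minus strand and outside annotated genes, ran from 2173 through 2278 to 2409 (2278 ± 64.8, 18 spots, rank 37), the tightest of these. miR-4478, at chr9:122120147-122120163 on the minus strand and also outside genes, ran from 1969 through 2153 to 2500 (2157 ± 145, 20 spots, rank 38). The pair could not be set in order, since their spots overlapped.

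miR-4516, at chr16:2133120-2133136 on the plus strand and within the bounds of the polycystin gene PKD1, ran from 1362 through 1980 to 3112 (2099 ± 676, 20 spots, rank 41). It was read by 3 probes, with means of 1411 ± 29.7, 1987 ± 35.7 and 3033 ± 72.7, so the choice of probe moved its level by more than the spots did. Another 2 members had a mean above 1000 and a signal within the brightest 100. miR-4446-3p, at chr3:113594918-113594939 on the plus strand within SIDT1, a gene of the SID1 family of transmembrane proteins, ran from 589 through 1298 to 2186 (1468 ± 558, 20 spots, rank 65). miR-4419a ran from 654 through 1290 to 1501 (1192 ± 259, 20 spots, rank 86) and had no sequence matched.

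The rest of the 15 brightest lay between 555 and 1538 in mean brightness. miR-4505, at chr14:73758749-73758766 on the plus strand within MIDEAS, a gene of a histone deacetylase complex, had a mean of 1538 ± 1158 (19 spots, rank 105), the widest spread relative to the mean among the 15. The values of miR-4522 (967 ± 139, 18 spots), of miR-4442 within the topoisomerase gene TOP2B (876 ± 106, 20 spots) and of miR-4484 within UROS, a gene of haem synthesis (781 ± 93.3, 20 spots), overlapped with their neighbours in the order. miR-4515 (740 ± 35.5, 20 spots), miR-4496 (585 ± 29.5, 20 spots) and miR-4417 (555 ± 25.1, 19 spots) followed. Every spot of the 15 was well above background, and in 11 of them the probes lay within 0.5 on the log2 scale. Apart from miR-4446-3p, none of the 15 names carried an arm.

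**Figure D2:**
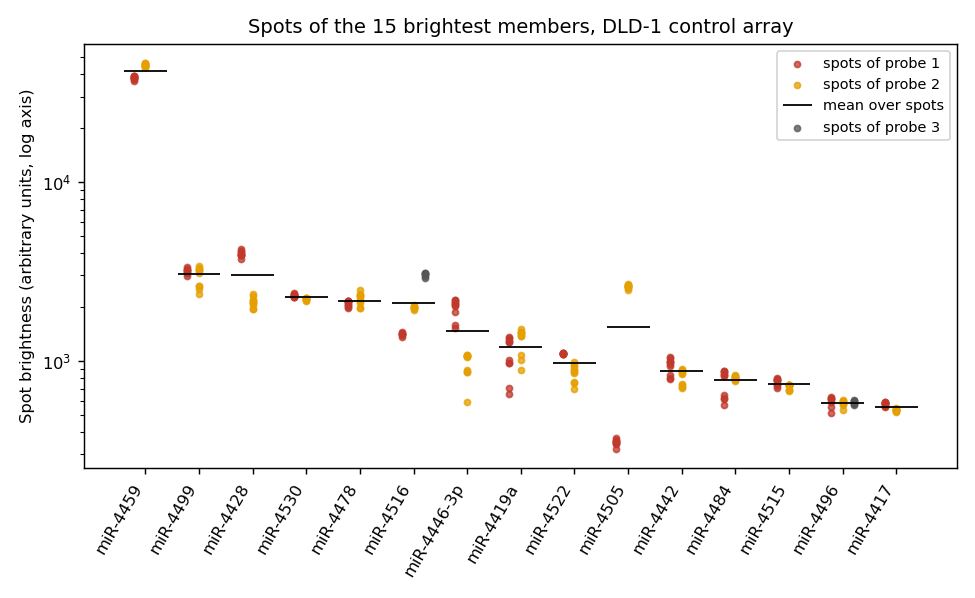
The y axis is the brightness of single spots (arbitrary units, log axis) for the 15 brightest members on the x axis, coloured by probe, with a black bar at the mean over spots. miR-4459 stands 13.6-fold above miR-4499, and the probes of miR-4428, miR-4516, miR-4446-3p and miR-4505 form widely separate groups of spots. Those of miR-4459, miR-4522, miR-4530 and miR-4417 form closer groups that do not overlap either.

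Agreement between the probes of a miRNA was measured as the log2 difference between its brightest and its dimmest probe. The median over the 89 detected members was 0.31, and 18 of them (20.2%) had probes over 1 log2 unit, or over 2-fold, apart, where 24.7% of all detected human miRNAs did. In the 248 detected low-numbered miRNAs the median was 0.46, and 72 (29.0%) were over 1 log2 unit apart. Many low-numbered miRNAs had more probes, however, and a range grows with their number: 139 of the 494 had 4 probes. Among detected miRNAs with exactly 2 probes the medians were 0.31 over 82 members and 0.30 over 177 low-numbered miRNAs, and the shares over 1 log2 unit were 19.5% and 20.9%. Over the miRNAs with every spot well above background, the medians were 0.24 for 75 members and 0.30 for 142 low-numbered miRNAs. On these like footings the probes of late and early miRNAs agreed about equally well. The difference between probes exceeded 2 standard errors, taken from the spots, in 60 of the 89 detected members (67.4%) and in 194 of the 248 low-numbered miRNAs (78.2%). Over all detected human miRNAs the share was 71.5%, close to that of the members. Across miRNAs, the rank correlation of signal with probe range was -0.19 over the 89 members and -0.43 over the 248 low-numbered miRNAs, points that share 1 array and its background.

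Among detected members with every spot well above background, 5 had the widest probe ranges. The probes of miR-4505 read 351 ± 14.2 (9 spots) and 2607 ± 54.3 (10 spots), 2.89 apart on the log2 scale with a standard error of 0.02. Those of miR-4485-3p read 53.3 ± 3.98 (10 spots) and 369 ± 5.05 (8 spots), 2.79 apart. Its locus, chr11:10508277-10508296 on the minus strand, lies within MTRNR2L8, a nuclear pseudogene copy of the mitochondrial ribosomal RNA. The probes of miR-4443 (76.0 ± 9.15 and 459 ± 23.2, 10 spots each) were 2.60 apart, those of miR-4483 (110.2 ± 40.0 and 537 ± 126.5, 10 spots each) 2.34, and those of miR-4497, within the cation channel gene TRPV4 (104.2 ± 6.23 over 10 spots and 489 ± 15.9 over 9), 2.23. In each of these 5 members the probes differed by over 3 times the larger SD between spots. At the other end, the probes of miR-4476, within the B-cell factor gene PAX5, read 211.2 ± 18.0 and 211.3 ± 10.2, and those of miR-4502 read 99.1 ± 8.30 and 99.4 ± 7.81 (10 spots each). A probe range above 2 was found in 10 of the 89 detected members, and in 167 of the 1447 detected human miRNAs with 2 or more probes.

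**Figure D3:**
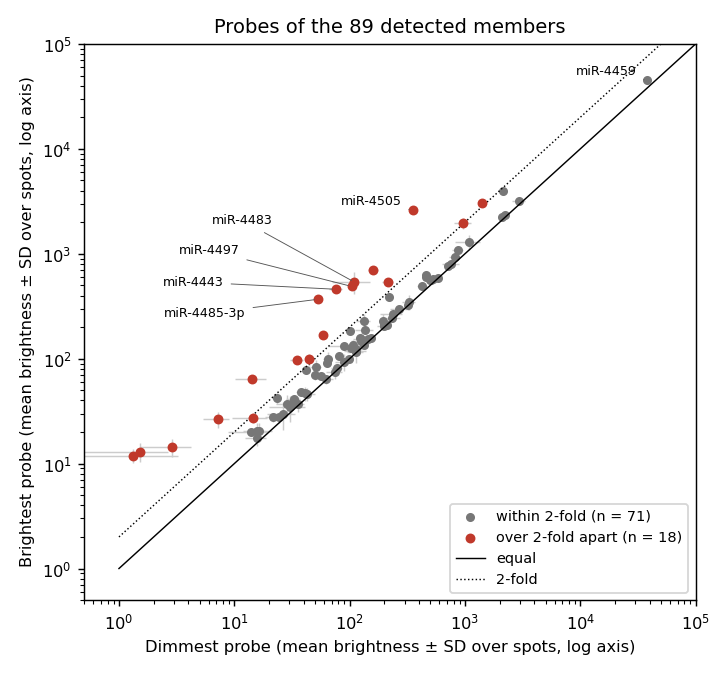
Each point is 1 of the 89 detected members, with the mean brightness of its dimmest probe on the x axis and of its brightest probe on the y axis (both log axes, bars show the SD over spots). The 71 members within 2-fold lie between the solid line of equality and the dotted 2-fold line, and the 18 others in red lie above it, among them miR-4505 at a probe range of 2.89.

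At the edge of detection, the flag and the spots did not always go together. The lowest detected members were miR-4524a-5p at 6.33 ± 5.73, miR-4510 at 6.96 ± 6.19 and miR-4471 at 8.28 ± 6.21 (19 spots each), and in each of them no spot was well above background. In each, 1 probe of 2 gave most of the brightness, and for miR-4510 the probes read 1.52 ± 1.13 (10 spots) and 13.0 ± 2.55 (9 spots). The undetected members with the brightest probes were miR-4491 (9.94 ± 3.36, 20 spots), miR-4426 (brightest of 4 probes 10.6 ± 4.54, 5 spots) and miR-4439 (9.56 ± 2.24, 20 spots). miR-4491 and miR-4439 thus had a higher mean than the 3 lowest detected members, and the spots of the 6 miRNAs overlapped. miR-4521, a member of the study's lists, was detected but close to background, with spots from 11.7 through 16.6 to 21.6 (16.5 ± 3.02), 5 of 20 well above background. miR-4473 was not detected (-1.74 ± 1.59, 17 spots), nor was miR-4446-5p (-3.42 ± 1.29, 19 spots), while its partner arm miR-4446-3p stood at 1468.

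Of 13 hairpins with both arms on the array, 4 had both arms detected, 4 only the 3p arm, 1 only the 5p arm and 4 neither. The largest gap was that of miR-4446, whose 3p arm was at 1468 and whose 5p arm was at the floor. miR-4520-3p (119.7 ± 9.41) and miR-4529-3p (74.4 ± 10.9) had 5p arms below 0 in mean brightness, and miR-4445-3p (17.3) was dim. miR-4485 had the brighter 5p arm, with 529.7 ± 80.0 for its 5p arm and 193.5 ± 161.4 for its 3p arm, whose probes disagreed as given above. Of the 114 members named without an arm, 74 were detected (64.9%), of the 15 named 3p 10 were (66.7%), and of the 13 named 5p 5 were (38.5%). Over all human miRNAs these shares were 60.9% without an arm, 49.4% for 3p and 60.5% for 5p, and over the low-numbered miRNAs 63.3%, 52.9% and 44.6%. Among the low-numbered miRNAs, only 49 of 494 carried no arm.

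The base composition of the members differed from that of the early miRNAs. Over the 126 members with a sequence the median share of G was 33.97% of bases, against 22.7% in 445 low-numbered miRNAs and 27.3% in 2248 human miRNAs. A run of 3 or more G (GGG, read on the mature strand) was present in 42.9% of the members, in 25.2% of the low-numbered miRNAs and in 32.7% of all human miRNAs. The members were also shorter: 33 (26.2%) were 19 bases or fewer, where 6 low-numbered miRNAs (1.35%) and 9.21% of all human miRNAs were. The bright sequences printed first show both features, since 8 of the 11 hold a GGG run, 6 of the 11 have 19 bases or fewer, and their share of G ran from 31.8% to 64.7% with a median of 45.5%.

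Within the members, detection and signal went with G. The median share of G was 41.2% in 76 detected and 23.8% in 50 undetected members, and GGG was present in 61.8% and 14.0% of them. The undetected miR-4473 and miR-4446-5p held 18.2% and 13.6% G, but some undetected members were rich in G, such as miR-4492 at 58.8% and miR-4525 at 52.4%. The same lean was seen in the low-numbered miRNAs, with 28.6% G in those detected and 21.7% in those not. Across miRNAs of this array the rank correlation of signal with the share of G was 0.66 over 126 members and 0.45 over the 76 detected, 0.45 and 0.25 for the low-numbered miRNAs (445 and 223), and 0.59 and 0.48 for all human miRNAs (2248 and 1279). These are descriptions of 1 array, in which all points share the same RNA, label and scan. Whether the amount of miRNA or the binding of G-rich strands to the probes moved the signal cannot be told apart here.

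**Figure D4:**
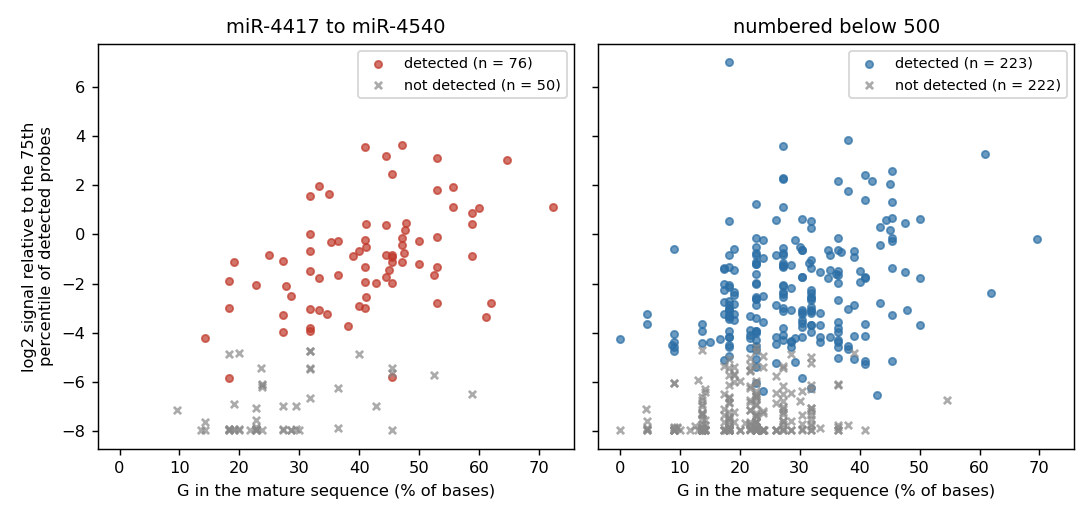
The x axis is the share of G in the mature sequence (% of bases) and the y axis the log2 signal relative to the 75th percentile among detected probes, for members (left) and miRNAs numbered below 500 (right), with detected miRNAs as filled points and undetected ones as crosses. Signal was higher at higher shares of G in both panels (rank correlation 0.66 over 126 members and 0.45 over 445 low-numbered miRNAs), and the members extend farther to the right.

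Split at the tertiles of the share of G over all human miRNAs (22.2% and 33.3%), the share detected rose from class to class in both sets. In the lowest G class 5 of 21 members (23.8%) and 54 of 173 low-numbered miRNAs (31.2%) were detected. In the middle class the counts were 17 of 42 (40.5%) and 103 of 196 (52.6%), and in the highest 54 of 63 (85.7%) and 66 of 76 (86.8%). The shares were close in the highest class, and in the other 2 classes that of the members was the lower. The highest class held 63 of the 126 members with a sequence but 17.1% of the low-numbered miRNAs. When the low-numbered miRNAs were weighted to the members' mix of classes, 66.1% would have been detected, against 60.3% of the members with a sequence and 50.1% of the low-numbered miRNAs unweighted. The same weighting gave 66.8% for all human miRNAs. Thus the higher share of late miRNAs detected was not seen at equal G.

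**Figure D5:**
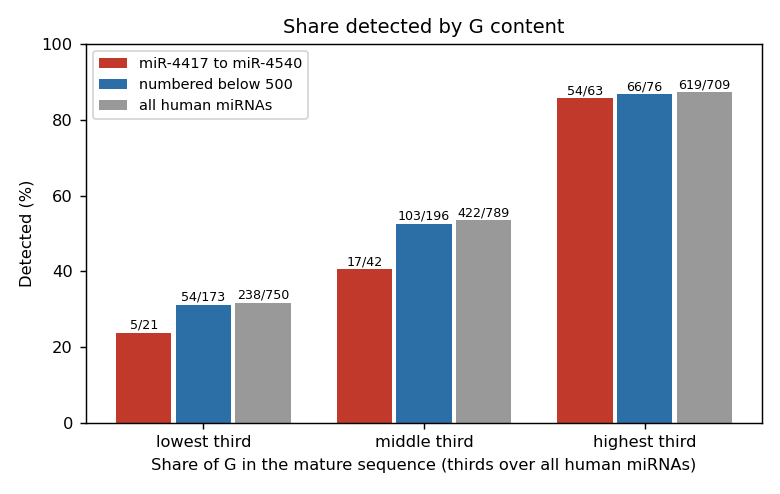
Bars give the share of miRNAs detected (%) in 3 classes of the share of G in the mature sequence, split at 22.2% and 33.3%, for members, miRNAs numbered below 500 and all human miRNAs, with detected over total above each bar. From the lowest to the highest class the share rose from 23.8% to 85.7% in the members and from 31.2% to 86.8% in the low-numbered miRNAs.

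The difference in signal became smaller at equal G but remained, with the number of probes not matched. The median signals of detected members and low-numbered miRNAs were -2.98 and -3.32 in the lowest class, -2.07 and -2.57 in the middle and -0.70 and -1.64 in the highest. In the highest class, the signal of the members also differed by length. There the 27 detected members of 19 bases or fewer (of 28) had a median of -0.14, and the 27 detected members of 20 bases or more (of 35) had a median of -1.21. The latter was the median of all human miRNAs of that length and class as well (-1.21 over 525 detected). The low-numbered miRNAs of that length and class stood lower, at -1.73 (63 detected), so a difference from them remained at like length. For short miRNAs of that class all human miRNAs had -0.24 (94 detected), and 3 low-numbered miRNAs were too few to compare. The share among the 254 brightest human miRNAs, 15.1% of members with a sequence and 5.39% of low-numbered miRNAs, was 10.8% for the latter when weighted to the members' G classes. For all human miRNAs with a sequence it was 9.61%, and 13.8% when weighted in the same way, closer to that of the members. By length alone, 29 of 33 members of 19 bases or fewer (87.9%) were detected, 16 of 34 of 20 to 21 bases (47.1%) and 31 of 59 of 22 bases or more (52.5%). The shares over all human miRNAs were 73.9%, 56.2% and 54.7%, so that the members lay above them in the short band and below them in the others. The short members were also the richest in G, at a median of 47.1%.

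Seeds shared between members or with other miRNAs were counted, with no share over all human miRNAs to set beside them. The 126 sequences held 121 seeds, of which 5 were each shared by a pair of members. Among all human miRNAs matched, 35 members shared a seed with another miRNA outside the range. The pairs in which a member and an early or fellow member were both detected are printed below with their partners, since miRNAs with a shared seed can share targets. Those with the let-7 seed were added after their values were seen, as let-7 names carry no number.
miR-4429: aAAAGCUGggcugagaggcg
miR-320b: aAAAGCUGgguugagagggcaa
miR-320c: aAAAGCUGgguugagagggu
miR-320d: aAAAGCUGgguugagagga
miR-4465: cUCAAGUAgucugaccagggga
miR-26a-5p: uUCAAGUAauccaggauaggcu
miR-4420: gUCACUGAugucuguagcugag
miR-181b-2-3p: cUCACUGAucaaugaaugca
miR-4434: aGGAGAAGuaaaguagaa
miR-4458: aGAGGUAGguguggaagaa
miR-4500: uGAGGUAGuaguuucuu
let-7b-5p: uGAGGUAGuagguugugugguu
let-7g-5p: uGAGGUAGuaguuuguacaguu

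miR-4429, on the minus strand at chr2:11540652-11540671 within the oestrogen-responsive gene GREB1, has the seed of the miR-320 family and 17 identical bases out of 20 with miR-320b and miR-320c and out of 19 with miR-320d, counted from the 5′ end. Its spots ran from 70.0 through 100.3 to 109.9 (93.9 ± 13.1, 19 spots). miR-320b stood at 1328 ± 104.2 (20 spots), miR-320d at 1116 ± 118.3 (20 spots) and miR-320c at 1029 ± 53.8 (16 spots). No spot of miR-4429 reached those of the 3 others, so close sequences were read at distinct brightness. Whether part of the signal of miR-4429 came from miR-320 strands was not tested.

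miR-4458 and miR-4500 carry the seed of let-7, the family of conserved miRNAs that restrain growth and are best known for their action on RAS and LIN28. The spots of miR-4458 ran from 114.0 through 156.5 to 176.5 (149.3 ± 19.3, 20 spots), each well above background. miR-4500 was not detected, with spots from -4.59 through -2.97 to 1.75 (-1.89 ± 1.96, 20 spots). Of the 8 let-7 miRNAs with this seed all were detected, from let-7e-5p at 10.9 to let-7b-5p at 1026 ± 29.8, and miR-98-5p was not detected. The undetected miR-4500 is the closer of the pair to let-7, with 12 to 15 identical bases out of 17 counted from the 5′ end, against 8 to 10 out of 19 for miR-4458. These counts compare mature strands only, and the sequences of the probes were not compared. Whether let-7 strands bind to the probes of either member was not tested.

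In the remaining pairs, miR-4465 (155.2 ± 7.07, 19 spots) has the seed of miR-26, with 11 of 22 bases identical to miR-26a-5p (112.4 ± 43.3, 18 spots), and their spots overlapped. miR-26b-5p was not detected. miR-4420 (18.5 ± 4.73, 20 spots, 9 well above background) and miR-181b-2-3p (12.7 ± 3.60, 18 spots, none well above background) were both near the edge of detection. miR-4434 has the seed of the bright miR-4516 and 9 of 17 identical bases, and read 36.2 ± 25.5 (18 spots), with probes at 14.4 ± 4.27 and 63.6 ± 4.45 that did not overlap.

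By position, 126 members could be placed on GRCh38.p14, 118 at 1 locus and 8 at several. Of these 85 lay within the bounds of another annotated gene on either strand, 62 of them within a protein-coding gene, and whether a locus was exonic or intronic was not determined. The share detected was 61.2% within genes (52 of 85) and 58.5% outside (24 of 41). The 2 shares were close.

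A group of 4 members, singled out after the values were seen, lay close together within the immunoglobulin heavy chain locus IGH, which is rearranged and transcribed in B cells, on the minus strand of chromosome 14. miR-4507, at chr14:105858125-105858144, ran from 481 through 534 to 588 (529.4 ± 36.0, 19 spots). miR-4538 read 139.9 ± 19.8 and miR-4539 133.6 ± 9.73 (20 spots each), and in these 3 every spot was well above background. miR-4537 was not detected (-0.673 ± 1.44, 16 spots). The detected members of the group are rich in G, with 45.5% in miR-4538 and miR-4539 and more in miR-4507. The undetected miR-4537 holds 36.4%, which also falls in the highest G class. A B-cell locus was thus read at 2 levels and at background on an array of an epithelial line, and what RNA bound to these probes was not tested.
miR-4507: cUGGGUUGggcugggcuggg
miR-4538: gAGCUUGGaugagcugggcuga
miR-4539: gCUGAACUgggcugagcugggc
miR-4537: uGAGCCGAgcugagcuuagcug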

How the data were processed

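miRNA was measured on 1 Agilent array of DLD-1 cells carrying the control plasmid, assigned from the sample labels. The scanner output deposited by the authors gives the intensity of each spot, with the background subtracted, outlier spots marked and detection flags set by Agilent Feature Extraction (version 11.0.1.1). Also deposited by the authors were log2 values for each miRNA, quantile normalized in GeneSpring per the methods. The arrays normalized together are not named. The labels describe labelling by ligation of Cy3-pCp, whereas the methods describe labelled cDNA.

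Outlier and control spots were left out, and brightness below 1 was set to 1. The log2 intensities were averaged per probe and then per miRNA, and scaled by subtracting their 75th percentile among detected probes. Those were probes of detected miRNAs with at least 0.5 of their spots well above background. Printed brightness is the mean over spots without the floor. Detection was the software flag of a miRNA.

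The members and lists were chosen with earlier results of these data known. The text names the 15 brightest detected members, the 5 largest and 2 smallest probe ranges among detected members with every spot well above background, the 3 lowest detected and 3 undetected members with the brightest probes, members in the study's lists of changed miRNAs, members sharing a seed where both miRNAs were detected, and the 5 brightest low-numbered miRNAs. Members on the IGH locus, with the let-7 seed or with both arms on the array were chosen after their values were seen.

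Alternatives covered the detection criterion, the signal column, the brightest probe alone, outlier spots, the number of probes, the comparison set and the normexp correction of limma 3.58.1 (R 4.3.3, offset 50) on median spot signals. Python 3.11.15, numpy 2.4.6, pandas 2.3.3 and scipy 1.17.1 were used, and the summaries were tested on simulated data. The number of arrays, 1, limits the precision, so no p-value is given.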

Additional observations from a re-analysis of the deposited data

How the results depend on the processing

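Of 36 alternative values 21 moved by less than the spread allowed and 15 moved further. Only the difference in median signal could change direction, since shares, counts and probe ranges are never negative. It stayed positive in every alternative. When a probe needed 0.5 of its spots well above background for detection, 42.11% of the low-numbered miRNAs were detected and the difference in median signal was 1.28. When it needed every spot, these were 37.65% and 0.91. When 0.5 of its spots had to be positive and significant, 77.46% of the members and 64.37% of the low-numbered miRNAs were detected. The difference in median signal was 1.65 in the deposited normalized values, 1.26 for the brightest probe alone and 0.95 after normexp, which also lowered the median probe range to 0.17 in the members and 0.18 in the low-numbered miRNAs. The median probe range of the low-numbered miRNAs was 0.30 with every spot well above background and 0.30 with exactly 2 probes. With exactly 2 probes that of the members was 0.31, so the lower range of the members in the main setting was not seen there. With all other human miRNAs as the comparison, 56.46% were detected and the difference in median signal was 1.27. The cause of these shifts was not tested, beyond what each criterion leaves out. No paired analysis was possible because only a single array was analysed. Spots of 1 array share the RNA, the label and the scan, so the SD between them leaves out the spread between cultures and between hybridisations. The 16 members without a matched sequence, miR-4459 among them, entered no statement on bases, seeds or loci.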
